A study of Mus musculus with 4 samples.

Results

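The genes described here are those of glycolysis, of glucose and lactate transport, and of the transcriptional response to low oxygen, as listed by name. The list held 37 genes, and 34 of them had at least 1 probe set assigned to that gene alone, 76 probe sets in all among the 45101 on the array. Gapdh was read by 3 control probe sets, which stay out of the gene counts, and otherwise by 3 probe sets that it shares with other genes, and Slc2a3, Pdk4, Car9 and Ankrd37 were too dim for the level filter. The filter kept genes whose mean over the 4 arrays was at least log2 5.28, the 40th percentile, which left 29 of the 37 genes among 10916 genes analysed. Gpi1 and Eno1 were not analysed here, and Bnip3l had only probe sets that it shares with a pseudogene.

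The samples were dermal fibroblasts on a C57BL/6 background, measured on 1 Affymetrix array per group. The in vitro deleted culture received an adenovirus carrying Cre recombinase (Adeno Cre), and the in vitro control received an adenovirus carrying GFP (Adeno GFP). The in vivo deleted sample came from mice labelled ColI Cre x RBP loxp-loxp, in which a Cre transgene removes the floxed Rbpj gene, and the in vivo control came from mice with the floxed gene and no Cre (RBP loxp-loxp). Rbpj encodes RBP-J kappa, the DNA-binding protein of Notch signalling. The labels do not give the age or number of the mice, the cells in which the transgene was active or any culture step for the in vivo cells. No sample was repeated, so a difference within a system has no replicate check and no p-value.

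Glycolysis turns glucose into pyruvate in the cytosol and yields ATP without oxygen. Lactate dehydrogenase then regenerates the NAD that the pathway consumes, and monocarboxylate transporters carry the lactate out. When oxygen falls, the prolyl hydroxylases stop marking the HIF alpha subunits for destruction by the VHL ubiquitin ligase. HIF then binds a short DNA element and raises glycolytic enzymes, transporters and a set of genes outside metabolism, among them regulators of mitophagy and collagen hydroxylases. Many glycolytic enzymes are thus HIF targets as well as constitutive genes, and the separation used below is one of role.

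The 8 fibroblast markers listed were above the level cutoff on all 4 arrays, with Col1a1, a chain of type I collagen, at 13.55 to 13.72 on the log2 scale. Not all were level across the arrays. Between the systems 3 of the 8 were higher in vivo and 5 lower (median -0.19), with Lum at -2.89 and Dcn at -0.92. With the deletion in vivo 3 were higher and 5 lower (median -0.05), with Lum at -1.06 and Pdgfra at -0.59. Rbpj differed between deleted and control by -1.34, -1.11 and 0.10 in vitro and by -0.83, -0.10 and -0.49 in vivo on its 3 probe sets, listed in the same order. Most skeletal muscle and keratinocyte markers stood higher on the in vivo deleted array than on its control. The excess was at least 2-fold for 8 of 10 and 6 of 11 measured markers (2.81% of all genes analysed). Cdh1, among the 6, was under the cutoff on every array. The keratinocyte markers Krt10 (-0.33), Krt15 (-0.19), Krt1 (-0.19) and Trp63 (-0.455) were lower. On the in vitro control array the Gapdh transcript read 12.11 at its 3′ end and 11.11 at its 5′ end, while on the other 3 arrays the ends lay within 0.02 to 0.14 of each other. The 3′ excess of Actb was 1.11, 0.40, 0.41 and 0.15 (in vitro control, in vitro deleted, in vivo control, in vivo deleted). That of Pcx was 3.16, 2.01, 1.10 and 0.83, larger in vitro, while that of Tfrc was 0.96, 1.45, 1.25 and 1.54, smallest on the in vitro control array. The bioB hybridisation spike averaged 8.32 and 8.26 on the in vitro arrays (control, deleted) and 7.17 and 7.22 on the in vivo arrays, so the culture system cannot be told apart from a batch of arrays. In whole samples, fewer cells of a type and less RNA per cell cannot be told apart either.

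Members ranged from background to the top of the scale. Pgk1, which makes ATP in the payoff phase of glycolysis, read 12.19 (in vitro control), 12.27 (in vitro deleted), 12.48 (in vivo control) and 12.69 (in vivo deleted) on the log2 scale. Ldha, the lactate dehydrogenase subunit favoured in glycolytic cells, read 11.53, 11.36, 12.11 and 12.57 in the same order, which is kept for all sets of 4 values below. Car9, a surface carbonic anhydrase that is among the most hypoxia-dependent genes known, stayed under the cutoff on every array, at 4.59, 4.53, 4.70 and 4.44. Ankrd37, another gene induced by HIF, was equally dim at 4.54, 4.47, 4.45 and 4.75. The neuronal-type glucose transporter Slc2a3 did not exceed 4.92 on any array, and Pdk4, the starvation-induced pyruvate dehydrogenase kinase, did not exceed 4.07. None of these 4 genes gave a signal from which a change could be read.

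**Figure D1:**
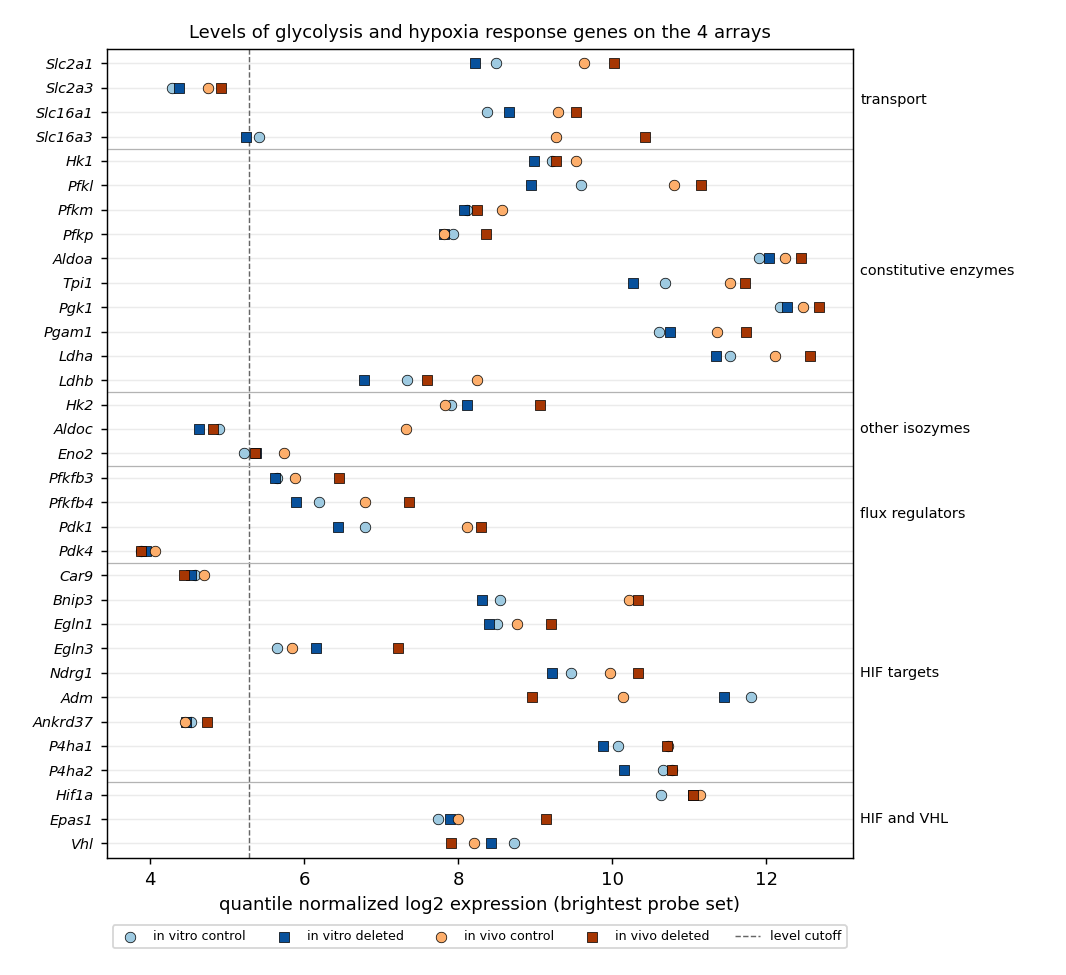
Quantile normalized log2 expression (horizontal axis) of the brightest probe set of 33 member genes on each of the 4 arrays, 1 point per array, grouped by role; the dashed line is the level cutoff of 5.28. For most genes the in vivo arrays (orange) lie to the right of the in vitro arrays (blue), Adm and Vhl lie the other way, and Slc2a3, Pdk4, Car9 and Ankrd37 lie left of the cutoff on all arrays.

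Between the systems, the listed members were higher on the in vivo arrays almost throughout. Further pathway genes were not, with 8 of 16 higher in vivo in a wider glycolysis list and 16 of 28 in a wider HIF list. Members and lists were chosen with earlier results of these data known. Of 29 members, 27 had a higher mean over the 2 in vivo arrays than over the 2 in vitro arrays, while 52.5% of all genes analysed did. The members' median difference was 0.74 on the log2 scale, a 1.67-fold excess, against 0.03 for all genes. In 22 members both in vivo arrays exceeded both in vitro arrays (31.7% of all genes) and in 2 both were lower (26.4%). Without the level filter 31 of 33 were higher in vivo, and with the values as deposited, whose overall median difference was -0.11, 27 of 29 were. The excess was present in the control arrays alone (25 of 29, median 0.51, background 50.4%) and in the deleted arrays alone (26 of 29, median 0.83, background 54.5%). Aldoc, which passed the level filter only through its in vivo control array, is among the 27, the 25 and the 26. Skeletal muscle markers were also higher in vivo (8 of 8 analysed, median 1.84, and 0.71 in the controls alone). Some of them, such as Myh3 and Tnnt3, passed the level filter only through the in vivo arrays. Over all 10 measured, with no filter, the means were 5.35 and 5.01 in vitro and 5.93 and 7.75 in vivo (control, deleted). The 3′ excess of Pcx was larger on both in vitro arrays. The part of muscle cells or of the 3′ excess in the result was not tested.

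Single members were tested with limma across all 10916 genes, with deletion as a covariate. With 1 array per group, the SE rests on how far the deletion difference disagreed between the systems, moderated across genes, and not on repeated samples. After Benjamini-Hochberg adjustment 3 members rose in vivo (1.35% of all genes did) and 1 fell (2.77% of all genes). At an unadjusted p under 0.05 there were 14 members, against 28.7% of all genes, and 8 members were at least 2-fold higher in vivo (4.90% of all genes). The 8 include Aldoc, which passed the level filter only through its in vivo control array and read 4.81 on the in vivo deleted array. All calls above rest on few arrays. A fit without each array in turn had no deletion term, and with all 4 arrays that model gave 5 members that rose and 0 that fell. In such a fit without the in vitro control or without the in vitro deleted array no member passed, without the in vivo deleted array 3 rose and 0 fell, and without the in vivo control array 7 rose and 1 fell, where a system left with 1 array is assumed to vary like the other. Without the level filter no member passed either.

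Transporters showed the widest gap. Slc16a3 encodes MCT4, the lactate exporter of glycolytic cells and a HIF target, and read 5.41, 5.25, 9.27 and 10.42. Its signal lay beside the cutoff on both in vitro arrays and far above it on both in vivo arrays, a difference of 4.51 ± 0.36 (SE, limma adjusted p = 0.0172). With the in vitro deleted reading under the cutoff and the control just above it, the size of this difference is not exact, and it was 4.07 with an offset. Slc2a1, the basal glucose transporter GLUT1, read 8.50, 8.21, 9.63 and 10.03. Its groups did not overlap, but the excess of 1.47 ± 0.25 (SE, 2.78-fold) just missed the threshold (limma adjusted p = 0.055). Slc16a1, the lactate carrier MCT1, was 1.86-fold higher without passing (limma adjusted p = 0.0799).

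All 10 constitutive glycolytic enzymes analysed had a higher mean on the in vivo arrays, by 0.20 to 1.71 on the log2 scale. Of all genes 52.5% did. In the control arrays alone 9 of 10 were higher (50.4% of all genes), with Pfkp at -0.125. None of the enzymes passed the test after adjustment. Pfkl, the liver-type phosphofructokinase at the committed step, had the largest excess among them and read 9.60, 8.94, 10.81 and 11.16 (1.71 ± 0.31 SE, limma adjusted p = 0.0581). Tpi1, which interconverts the triose phosphates, read 10.69, 10.27, 11.53 and 11.72 (1.15 ± 0.24 SE, limma adjusted p = 0.076). Both genes kept their in vivo arrays apart from their in vitro arrays. On the brightest probe sets, Pgam1, Ldha and Ldhb had excesses of 0.86 to 0.89, whereas Hk1, Pfkm, Pfkp, Aldoa and Pgk1 lay between 0.20 and 0.38. This order depends on the probe set. Others above the cutoff differed by 1.158 and 0.527 for Pgk1 and by 1.075 for Hk1. They differed by 0.285 for Pfkp, by 0.147 to 0.574 for Aldoa and by 0.067 to 0.936 for Ldhb. The 3′ control probe set of Gapdh read 12.11, 12.43, 12.81 and 13.04. Of the isozymes with restricted expression, Eno2, the neuronal enolase, lay beside the cutoff at 5.22, 5.37, 5.73 and 5.36, and its difference of 0.25 did not pass (limma adjusted p = 0.522).

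Of the flux regulators, Pdk1 rose. It encodes a kinase that inhibits pyruvate dehydrogenase in the mitochondria and is induced by HIF, and it read 6.80, 6.44, 8.12 and 8.30 (1.59 ± 0.23 SE, 3.01-fold, limma adjusted p = 0.0439). Its other 2 probe sets above the cutoff differed by 0.99 and 0.75, and the call was lost with the deposited values, with the median of its probe sets, with an offset and in the fit without the in vivo deleted array. Pfkfb4, a bifunctional enzyme that sets the phosphofructokinase activator, was 2.05-fold higher and did not pass (limma adjusted p = 0.105).

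Among HIF targets outside glycolysis, 6 of 7 had a higher mean in vivo (52.5% of all genes). Bnip3, a mitophagy receptor, read 8.54, 8.31, 10.21 and 10.34 and rose by 1.85 ± 0.22 (SE, 3.61-fold, limma adjusted p = 0.0313) on its only probe set, a call lost when every gene was given the median of its probe sets. Adm, the gene of the vasodilator peptide adrenomedullin, ran opposite to the rest at 11.80, 11.45, 10.14 and 8.96 and fell by 2.08 ± 0.28 (SE, 4.24-fold, limma adjusted p = 0.0387). Both probe sets of Adm showed this order, with differences of -2.08 and -1.75, though the call was lost when the brighter one, of the suffix _x_at, was left out and in the fits without the deletion term or the in vivo deleted array. Ndrg1, P4ha1, Egln3, Egln1 and P4ha2 were between 0.37 and 0.81 higher and none passed. The probe sets shared by Bnip3l and its pseudogene differed by -0.69 to -0.03, so they gave no excess in vivo. Vhl, the substrate receptor of the HIF ubiquitin ligase, was the other member lower in vivo (-0.52, limma adjusted p = 0.177), but its dimmer probe set was higher by 0.33. The mRNA of Hif1a differed by 0.26 and that of Epas1, which encodes HIF-2 alpha, by 0.75, neither passing.

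**Figure D2:**
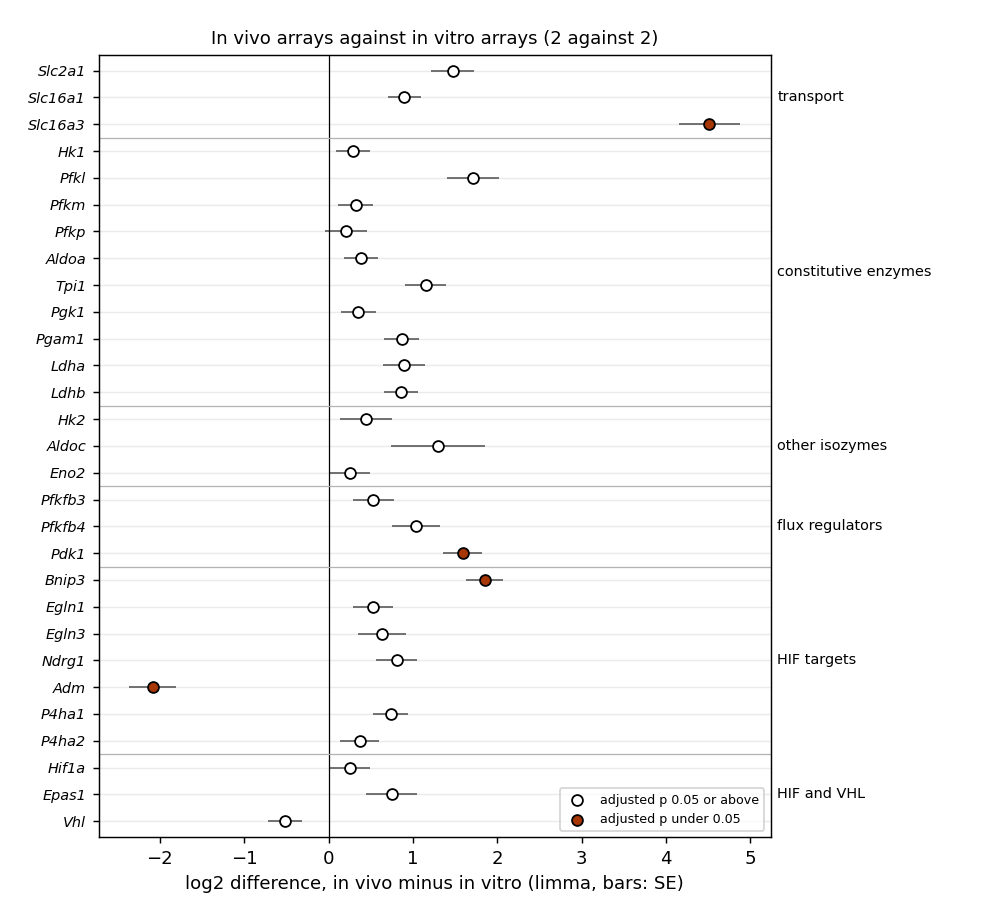
Log2 difference between the in vivo and in vitro arrays (horizontal axis; limma estimate over 2 arrays each, bars 1 SE) for the 29 member genes analysed, grouped by role. Filled points passed an adjusted p of 0.05: Slc16a3, Pdk1 and Bnip3 to the right of 0 and Adm to the left, while Vhl is the other gene left of 0.

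The promoters of the 4 genes that passed, and of Egln3, which had the largest excess of a member with the deletion in vivo, are shown because HIF acts through a short element. Sequences are from RefSeq (GRCm38.p6), where 33 of the 37 genes had a window. Each is the 250 bases before the annotated start of transcription, 5′ to 3′ on the strand of the gene, and capitals mark the HIF core ACGTG or GCGTG or its reverse complement. The positions are chr11:120948817-120949066, plus strand for Slc16a3, chr7:138909507-138909756, minus strand for Bnip3, chr2:71872974-71873223, plus strand for Pdk1 (the first of its 2 windows), chr7:110627407-110627656, plus strand for Adm and chr12:54203875-54204124, minus strand for Egln3.
Slc16a3: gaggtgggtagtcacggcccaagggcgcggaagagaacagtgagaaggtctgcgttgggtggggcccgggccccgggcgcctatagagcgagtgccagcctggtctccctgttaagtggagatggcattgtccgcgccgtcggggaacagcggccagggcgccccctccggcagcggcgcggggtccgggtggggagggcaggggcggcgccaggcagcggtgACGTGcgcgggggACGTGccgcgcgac
Bnip3: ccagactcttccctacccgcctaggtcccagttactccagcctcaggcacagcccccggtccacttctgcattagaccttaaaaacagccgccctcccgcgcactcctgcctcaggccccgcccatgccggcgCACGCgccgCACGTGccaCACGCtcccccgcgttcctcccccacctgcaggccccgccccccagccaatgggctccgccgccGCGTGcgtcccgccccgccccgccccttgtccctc
Pdk1: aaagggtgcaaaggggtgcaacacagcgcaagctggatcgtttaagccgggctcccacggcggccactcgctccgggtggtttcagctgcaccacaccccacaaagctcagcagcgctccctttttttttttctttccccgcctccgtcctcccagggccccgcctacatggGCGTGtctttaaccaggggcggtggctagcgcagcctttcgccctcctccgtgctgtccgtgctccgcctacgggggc
Adm: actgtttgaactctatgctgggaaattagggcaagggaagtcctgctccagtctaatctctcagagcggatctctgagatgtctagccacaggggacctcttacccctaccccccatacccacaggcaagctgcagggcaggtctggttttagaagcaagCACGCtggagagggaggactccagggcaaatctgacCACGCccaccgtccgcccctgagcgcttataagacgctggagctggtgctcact
Egln3: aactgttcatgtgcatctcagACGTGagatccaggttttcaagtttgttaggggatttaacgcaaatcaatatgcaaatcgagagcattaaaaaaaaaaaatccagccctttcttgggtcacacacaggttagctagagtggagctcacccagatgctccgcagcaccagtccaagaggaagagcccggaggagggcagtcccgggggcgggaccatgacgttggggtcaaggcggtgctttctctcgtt

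Slc16a3 held 2 matches close together, starting 27 and 14 bases before the start. Bnip3 held 5 between 117 and 35 bases before the start, an overlapping pair at the palindrome CACGTG included, Adm held 2, and Pdk1 and Egln3 held 1 each, that of Egln3 lying 229 bases before the start. Over windows of 300 bases, which run from 250 before to 50 after the start, 27 of 33 member genes held a match in their first listed window. The share among all genes was 43.8%. The members' windows were also richer in G and C (median 62.7% against 52.7%), and the core contains CG. All 8 HIF targets with a window held a match, as did 9 of 13 constitutive enzymes. A match is a string of letters and not a bound site, and the gene that fell, Adm, held matches as the genes that rose did.

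With deletion of Rbpj in vivo, few members differed by 2-fold and they went both ways. Slc16a3, Hk2, Egln3 and Epas1 were at least 2-fold higher on the deleted array (4 of 29, background 2.81%) and Aldoc and Adm at least 2-fold lower (2 of 29, background 3.81%). Aldoc entered that count only because its high in vivo control reading carried it past the level filter, and without it 1 member was lower. The members' median difference was 0.21, against -0.03 for all genes, and 19 of 29 were higher (46.4% of all genes). Skeletal muscle markers averaged 5.93 on the control and 7.75 on the deleted array and keratinocyte markers 5.30 and 7.48, with Myod1 and Krt1 under the cutoff on all arrays. Myog, a regulator of muscle differentiation, differed by 2.12. It did not pass the level filter and its control reading of 4.88 was under the cutoff, so that size is not exact. The part of such cells in the differences below was not tested.

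Hk2, the inducible hexokinase that is abundant in muscle, read 7.84 on the in vivo control and 9.07 on the deleted array, a 2.35-fold excess on its only probe set. On the in vitro arrays it read 7.91 and 8.12, so the in vivo deleted array alone stood apart. Slc16a3 was 2.22-fold higher with the deletion (9.27 to 10.42). Egln3 encodes PHD3, a HIF prolyl hydroxylase that HIF itself induces, and it read 5.65, 6.16, 5.84 and 7.22. Both of its probe sets were higher with the deletion in vivo, by 1.38 and 1.18, and both were higher in vitro, by 0.52 and 0.45. Epas1 read 9.14 on the deleted array, 1.14 above its control, but its other probe set differed by 0.37 and the median of the pair was 0.75, under 2-fold.

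The lower genes were 2 of different kinds. Adm read 10.14 on the control and 8.96 on the deleted array (2.27-fold lower), and its second probe set differed by -1.39. It was thus lower in vivo than in vitro and lower again with the deletion. Aldoc, an aldolase isozyme best known from brain, read 4.90, 4.64, 7.33 and 4.81. It passed the level filter only through the in vivo control array, the other 3 arrays lay under the cutoff, and its second probe set stayed between 3.48 and 3.59, so the size of 5.70-fold is not exact. Ldhb, the lactate dehydrogenase subunit typical of oxidative tissue, read 7.34, 6.78, 8.24 and 7.59. All 4 of its probe sets were lower with the deletion in both systems, by 0.65 to 1.84 in vivo and by 0.55 to 0.88 in vitro. The largest size in each system came from the same probe set. Its deleted readings of 4.53 in vivo and 4.94 in vitro were under the cutoff, so these sizes are not exact. The others were lower by 0.65 to 0.98 in vivo and by 0.55 to 0.585 in vitro.

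The remaining glycolytic machinery differed little in vivo. The constitutive enzymes spanned -0.65 to 0.54, with 7 of 10 higher and a median of 0.21, and none reached 2-fold. Pfkp, the platelet-type phosphofructokinase, was highest at 0.54 and Ldha stood at 0.46. Flux regulators lay at 0.18 for Pdk1, 0.56 for Pfkfb4 and 0.58 for Pfkfb3, with 1 of the dimmer Pdk1 probe sets at -0.69. The HIF targets Bnip3 (0.13), P4ha1 (-0.01) and P4ha2 (-0.01) were nearly level, the last 2 being subunits of the collagen prolyl hydroxylase. Hif1a stood at -0.09 and Vhl at -0.31.

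With deletion in culture no member differed by 2-fold on its brightest probe set (0 of 29, backgrounds 0.788% higher and 1.15% lower). Differences ran from -0.65 for Pfkl to 0.52 for Egln3, with a median of -0.18 against -0.06 for all genes. Members were higher in 9 of 29 cases (42.5% of all genes) and lower in 20, but 13 of 28 were higher when a gene was given the median of its probe sets, and the members' median was then -0.06. Pfkl alone was at least 1.5-fold lower (1 of 29, background 9.66%). Tpi1 was at -0.42, -0.72 and -0.44 on its 3 probe sets and Pfkl at -0.65 and -0.40 on those above the cutoff. Ldhb, Pdk1, Adm and Egln1 were the other members with several probe sets above the cutoff that were all lower in culture.

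**Figure D3:**
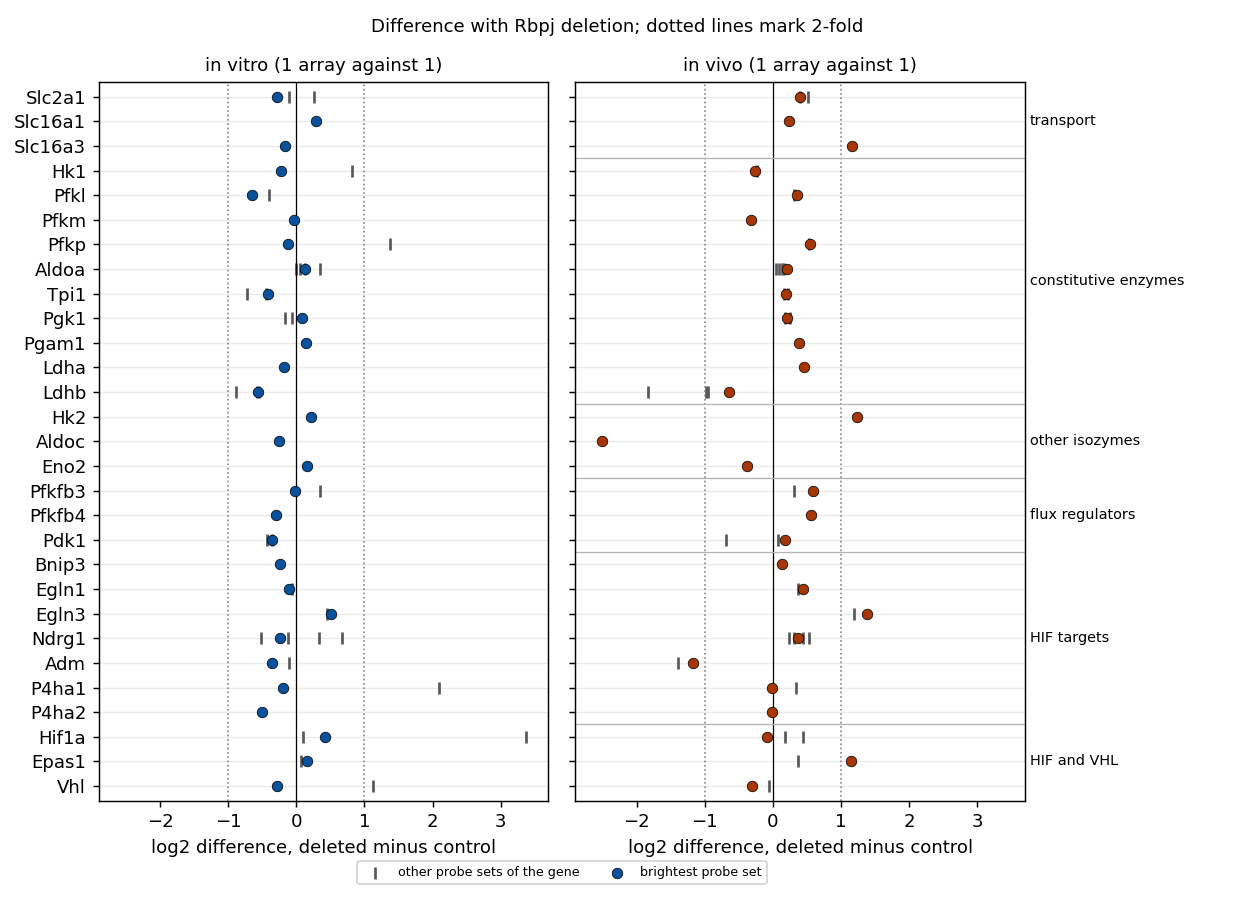
Deleted minus control difference on the log2 scale (horizontal axis) in vitro (left panel) and in vivo (right panel) for the 29 member genes analysed, with the brightest probe set as a point and the others above the level cutoff as ticks; dotted lines mark 2-fold. In vitro all points lie within 2-fold while ticks of Hif1a, P4ha1, Pfkp and Vhl lie beyond it; in vivo 4 points lie beyond 2-fold on the right and 2 on the left.

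Probe sets of 1 gene disagreed more often in culture than in vivo, among members as among all genes. Of 18 members with several probe sets above the cutoff, 6 spanned more than 1 log2 unit in vitro and 1 in vivo, beside 17.8% and 4.31% of all such genes. For Hif1a, the oxygen-regulated HIF subunit, the brightest probe set read 10.64, 11.05, 11.15 and 11.05, whereas the dimmest above the cutoff read 4.95, 8.33, 6.82 and 7.25. Between the in vitro arrays the first differed by 0.41 and the second by 3.38, and the low value belonged to the in vitro control array. P4ha1 had the same form, with its brighter probe set at 10.07, 9.88, 10.72 and 10.71 and the other at 6.37, 8.46, 8.12 and 8.46. The dimmer probe sets of Pfkp (1.37), Vhl (1.13) and Hk1 (0.82) also read higher in the deleted culture than in its control, while the brightest ones of these genes were slightly lower. The 5′ probe set of Gapdh behaved likewise, at 11.11 and 12.41 in vitro, against 12.11 and 12.43 for the 3′ probe set. The 3′ excess of Gapdh, Actb and Pcx was largest on the in vitro control array and moved with these differences, whereas that of Tfrc did not. Its part in them was not tested. No direction is read for Hif1a, P4ha1, Pfkp, Vhl, Hk1 or Ndrg1 in culture.

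**Figure D4:**
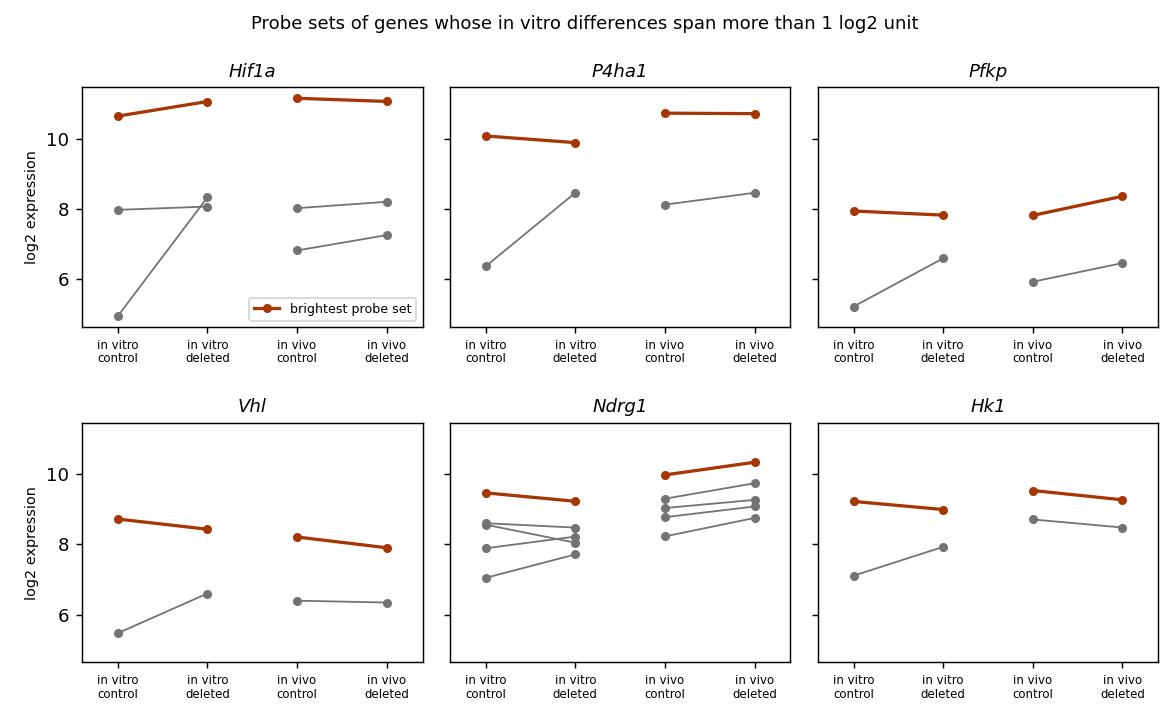
Quantile normalized log2 expression (vertical axis) on the 4 arrays of every probe set above the level cutoff for 6 genes whose in vitro differences spanned more than 1 log2 unit; lines join the control and deleted array of a system and the thick line is the brightest probe set. The dimmer probe sets of Hif1a, P4ha1, Pfkp, Vhl and Hk1 are lowest on the in vitro control array, and the brightest ones move by at most 0.41 between the in vitro arrays.

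HIF targets and constitutive glycolytic enzymes had close medians in the deletion comparisons and in the mean over the systems, and with 1 array a group their gap had no test. In vitro the median difference was -0.23 for the 7 HIF targets and -0.15 for the 10 enzymes, in vivo it was 0.13 and 0.21, and between the systems 0.63 and 0.62. The in vitro medians include P4ha1, Ndrg1, Pfkp and Hk1, for which no direction in culture is read, so no order of the lists is read in vitro. Between the control arrays alone the medians were 0.25 for the HIF targets and 0.52 for the enzymes, and between the deleted arrays alone 0.82 and 0.68, so the list that stood higher was not the same in both. The gap between the lists, HIF targets minus enzymes, was -0.09 in vitro and -0.08 in vivo. It changed sign with means in place of medians (0.03 and 0.05). In vivo it was 0.15 when the HIF list was widened by Slc2a1, Slc2a3, Slc16a3, Hk2, Aldoc, Eno2, Pfkfb3, Pfkfb4 and Pdk1. Of these, Slc2a3 was too dim to enter, and Aldoc entered only through its in vivo control reading. The spread within the HIF targets was wide in vivo, from -1.18 for Adm to 1.38 for Egln3, whereas that of the enzymes was -0.65 to 0.54.

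Across both systems no member passed a test of a shared deletion effect (limma with system as a covariate, lowest adjusted p = 0.679, 0 of 29, background 0.00%). At an unadjusted p under 0.05 there were 3 members, Ldhb (-0.60 ± 0.20 SE), Adm (-0.77 ± 0.28) and Egln3 (0.95 ± 0.28), while 6.95% of all genes reached it. Each of the 3 went the same way in both systems, which picking by this p-value favours, so nothing is read from it. Of all 29 members, 7 were higher in both systems, 8 lower in both, 12 lower in vitro and higher in vivo and 2 the reverse. These counts include the in vitro signs of Hif1a, P4ha1, Pfkp, Vhl, Hk1 and Ndrg1, for which no direction is read. The shares over all genes were not counted, so nothing is read from the counts.

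The wider pathway lists were about evenly divided between the systems. Among 16 further genes of glycolysis and pyruvate use, 8 were higher in vivo (median -0.02), and among 28 further HIF pathway genes 16 were (median 0.06). After adjustment 0 of these 44 genes rose (background 1.35%) and 3 fell (background 2.77%), namely the pyruvate carboxylase Pcx (-1.79, limma adjusted p = 0.0325), the glycerol phosphate dehydrogenase Gpd1 (-1.90, limma adjusted p = 0.0413) and Cited2, a competitor of HIF for its coactivator CBP (-1.62, limma adjusted p = 0.0351). Adipocyte markers were lower in vivo as well (2 of 2 analysed, median -1.92), and their part was not tested. Ak4, a mitochondrial adenylate kinase induced by HIF, read 6.37, 6.00, 7.33 and 8.76 and did not pass (limma adjusted p = 0.0908).

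With deletion in vivo, Ak4 was at 1.43 and Ddit4, an mTORC1 inhibitor induced by hypoxia and stress, at 1.28, whereas Arnt2 was at -1.28 and Ppp1r3c, a glycogen-targeting phosphatase subunit, at -2.50. The in vivo deleted readings of Arnt2 (5.15) and Ppp1r3c (4.13) were under the cutoff, so the sizes of their differences are not exact. Of 28 further HIF pathway genes, 2 were thus at least 2-fold higher (background 2.81%) and 2 lower (background 3.81%). Eno3, the muscle enolase, was at 1.04 and Bpgm at 0.80 in the glycolysis list, where 1 of 16 was at least 2-fold higher and 0 lower, against the same backgrounds. With deletion in vitro, Higd1a (-0.90), Fam162a (-0.82), Lox (0.68) and Egln2 (-0.67) led the HIF list and Txnip (0.57), an inhibitor of glucose uptake, the glycolysis list. Of the 6 pentose phosphate genes analysed 4 were lower in culture, led by Pgls (-0.85), and in vivo all lay between -0.24 and 0.34. None of the 6 reached 2-fold in either system.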

How the data were processed

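Poly(A) RNA was, per the labels' protocols, copied from a T7 oligo(dT) primer and labelled as antisense cRNA, so signal depends on distance from the 3′ end. The deposited table gives log2 values from 2.87 to 13.79, and that scale was read from the values. How the authors corrected and normalized them, and with which software, is not given in the sources used here. Values were quantile normalized over the 4 arrays (limma 3.58.1, R 4.3.3). Names came from GEO's platform annotation, with symbols updated through RefSeq (GRCm38.p6; 34754 of 34958 single-gene probe sets matched), and 9211 were unnamed here. A gene was represented by its brightest probe set. Probe sets ending in _x_at or _s_at can read related transcripts, pseudogenes included, and Aldoa has only such probe sets. Deletion differences were described at 2-fold, and system and shared effects fitted with lmFit and eBayes (1 residual degree of freedom, Benjamini-Hochberg at 0.05). With 1 array per group, the only residual of the main fit is the disagreement of the deletion difference between the systems. Its SEs and p-values measure that disagreement, moderated across genes, and not a spread between repeated samples. Nothing in the labels says that samples came from separate animals or cultures. On simulated data for 10916 genes, with 200 changed by 2 (log2) and a noise SD of 0.2, each fit recovered 100% and called 8 (shared effect) and 10 (systems) unchanged genes. That change is larger than the members' median difference between systems of 0.74, and SEs among members reached 0.56. The recovery thus says nothing on whether smaller or noisier differences would be found. Alternatives were the deposited values, centring, the median of probe sets, no _x_at or _s_at probe sets, other level filters, an offset of 15.4, other thresholds and other models. All members analysed are named. From each other list, up to 4 genes that passed the level filter, with the largest difference, were named per comparison. Some cell type markers, Col1a1, Myog, Myod1 and Krt1 among them, were named outside this rule. So were Pkm, Adpgk and Bpgm in the comparison of the systems. Members and lists were chosen with earlier results of these data known.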

Additional observations from a re-analysis of the deposited data

Results flagged for a closer look

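Among members and further pathway genes, 4 differed by 2-fold with the deletion in vivo and had the opposite sign in culture. The difference between the systems was not tested. The share of all genes with this pattern was not counted, so nothing is read from the count. Slc16a3 was at -0.16 in vitro and 1.15 in vivo, with its in vitro readings of 5.41 and 5.25 (control, deleted) beside the level cutoff. Eno3, the muscle enolase, was at -0.45 and 1.04. Ak4 was at -0.38 and 1.43. Ddit4 was at -0.01 and 1.28, the first of which is practically 0.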

How the results depend on the processing

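The lack of a 2-fold difference among members in culture held except with the median of probe sets, where 2 members were higher, and at 1.5-fold, where 1 was lower. In vivo, the count of members higher was 0 at 3-fold and 3 or 4 otherwise. The count lower was 1 with the median of probe sets, 1 with the 60th percentile filter and 1 at 3-fold. The gap between HIF targets and constitutive enzymes became 0.053 in vitro without _x_at and _s_at probe sets and 0.027 with means, and in vivo 0.048 with means and 0.153 with the widened list. The shared deletion effect called 0 members under every alternative. The members that rose in vivo numbered 1 with the median of probe sets, 0 with no level filter and 5 with the 60th percentile filter, a variance trend or no deletion term. Those that fell numbered 0 with the median of probe sets, without _x_at and _s_at probe sets, with no level filter and with no deletion term. Alternatives chosen after seeing the data left out each array, with no deletion term (0 to 7 rose and 0 to 1 fell, 0 rising without either in vitro array), or required 2-fold in the control arrays alone (6 higher) or the deleted arrays alone (11 higher). Those 6 include Aldoc, which passed the level filter only through its in vivo control array. Of single-gene values, 69 kept their call, 22 lost it and 0 reversed, and the cause was not tested. The number of arrays limits the precision. The shared deletion fit, with system as a term, compares deleted with control within each system. The labels give no replicate numbers to block on.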
